A study of Homo sapiens with 6 samples.

Results

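The 53 genes described here encode kinases, checkpoint proteins, kinetochore proteins and other factors of mitosis, taken by symbol from a table of 60604 genes. NEK kinases, and kinesins other than the kinetochore motor CENPE, were not included. All 53 symbols were found and all 53 passed the filter on low counts. The RNA came from the established human line MIA PaCa-2, derived from a carcinoma of the pancreas, in 2 groups of 3 libraries. In the BP group, cells were given 12.5 µg/ml of black phosphorus (BP), phosphorus in stacked atomic sheets. In the BP+Huaier group, the same dose of BP was combined with 10 mg/ml of Huaier, a preparation from a fungus of traditional Chinese medicine. All libraries are labelled WT in genotype and all cells received black phosphorus. Untreated cells and Huaier alone were not analysed here. The labels do not state whether each library had its own culture, so p-values measure only how these libraries vary, and that variation may be technical. How long cells were treated is not stated in these sources.

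Entry into mitosis is driven by CDK1, a kinase that is active only when bound to a cyclin, and is opposed by WEE1 and PKMYT1 and released by the CDC25 phosphatases. Chromosomes are then compacted by condensin, attached to the spindle through kinetochores, and held until the spindle checkpoint allows the anaphase-promoting complex to mark cyclin B and securin for destruction. Transcripts of most of these genes are known to rise from S phase to mitosis and to fall in resting cells, which is why they are widely read as a proliferation signature of tumours.

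The libraries held between 15657593 and 17036565 counts on genes. Values are CPM, counts relative to the scaled size of the library, computed with TMM factors, and 3 counts corresponded to between 0.160 and 0.222 CPM, a limit that covers counting error only. BP+Huaier 3 stood apart from its group, with a score of 11.5 on the principal component that held 72.4% of the variance. The scores of BP+Huaier 1 and 2 were 65.1 and 66.0, and those of the 3 BP libraries ran from -50.5 to -43.4. Of 7 epithelial markers 4 exceeded 1 CPM (KRT8, KRT18, KRT19 and MUC1), while EPCAM and CDH1 had group means of at most 0.089 CPM. The 7 together summed to between 1603 and 1774 CPM in BP and to 3252, 2951 and 1557 CPM in BP+Huaier 1, 2 and 3, mostly from the 3 keratins. MUC1 went the other way, from 52.8 ± 5.16 to 33.3 ± 3.91 CPM (edgeR adjusted p = 0.012). Of 3 mesenchymal markers VIM averaged 3493 and 3463 CPM (edgeR adjusted p = 0.96), FN1 was 4.39-fold lower at 2.67 and 0.615 CPM (edgeR adjusted p = 0.0071), and CDH2 had 0 counts. The 5 immune markers summed to at most 0.443 CPM in any library, with PTPRC and CD3E at 0 counts. The 5 fibroblast markers summed to between 379 and 550.5 CPM, almost all from COL1A2, with DCN and LUM at 0 counts, the 4 endothelial markers to between 12.1 and 21.1 CPM, almost all from CDH5, and 5 acinar and islet markers to at most 0.106 CPM. COL1A1 was 4.40-fold higher, at 1.34 and 5.92 CPM (edgeR adjusted p = 8.9e-04), while COL1A2 was not called (edgeR adjusted p = 0.19). CDH5 was 1.49-fold lower (edgeR adjusted p = 0.030). The part of these differences in the results below was not tested.

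With Huaier added to black phosphorus, transcripts of 27 of the 53 mitotic genes were higher and those of 2 were lower (edgeR quasi-likelihood test, Benjamini-Hochberg adjusted p under 0.05 over all 15022 genes tested). Over all genes tested, 14.4% were higher and 15.0% lower, 29.3% in all. Folds of the 27 ran from 1.32 for CCNB1 to 3.15 for CKS2, and 10 of them were at least 2-fold. On the log2 scale the median change of the 53 was 0.42, beside -0.02 over all genes tested. In 34 of the 53 all BP+Huaier libraries lay above all BP libraries, in 4 all lay below, and in 15 the groups overlapped, where over all genes 46.8% did not overlap, 21.9% with BP+Huaier above and 24.9% below. A larger share of cells in a phase of the cycle and more RNA per cell cannot be told apart in bulk RNA.

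**Figure D1:**
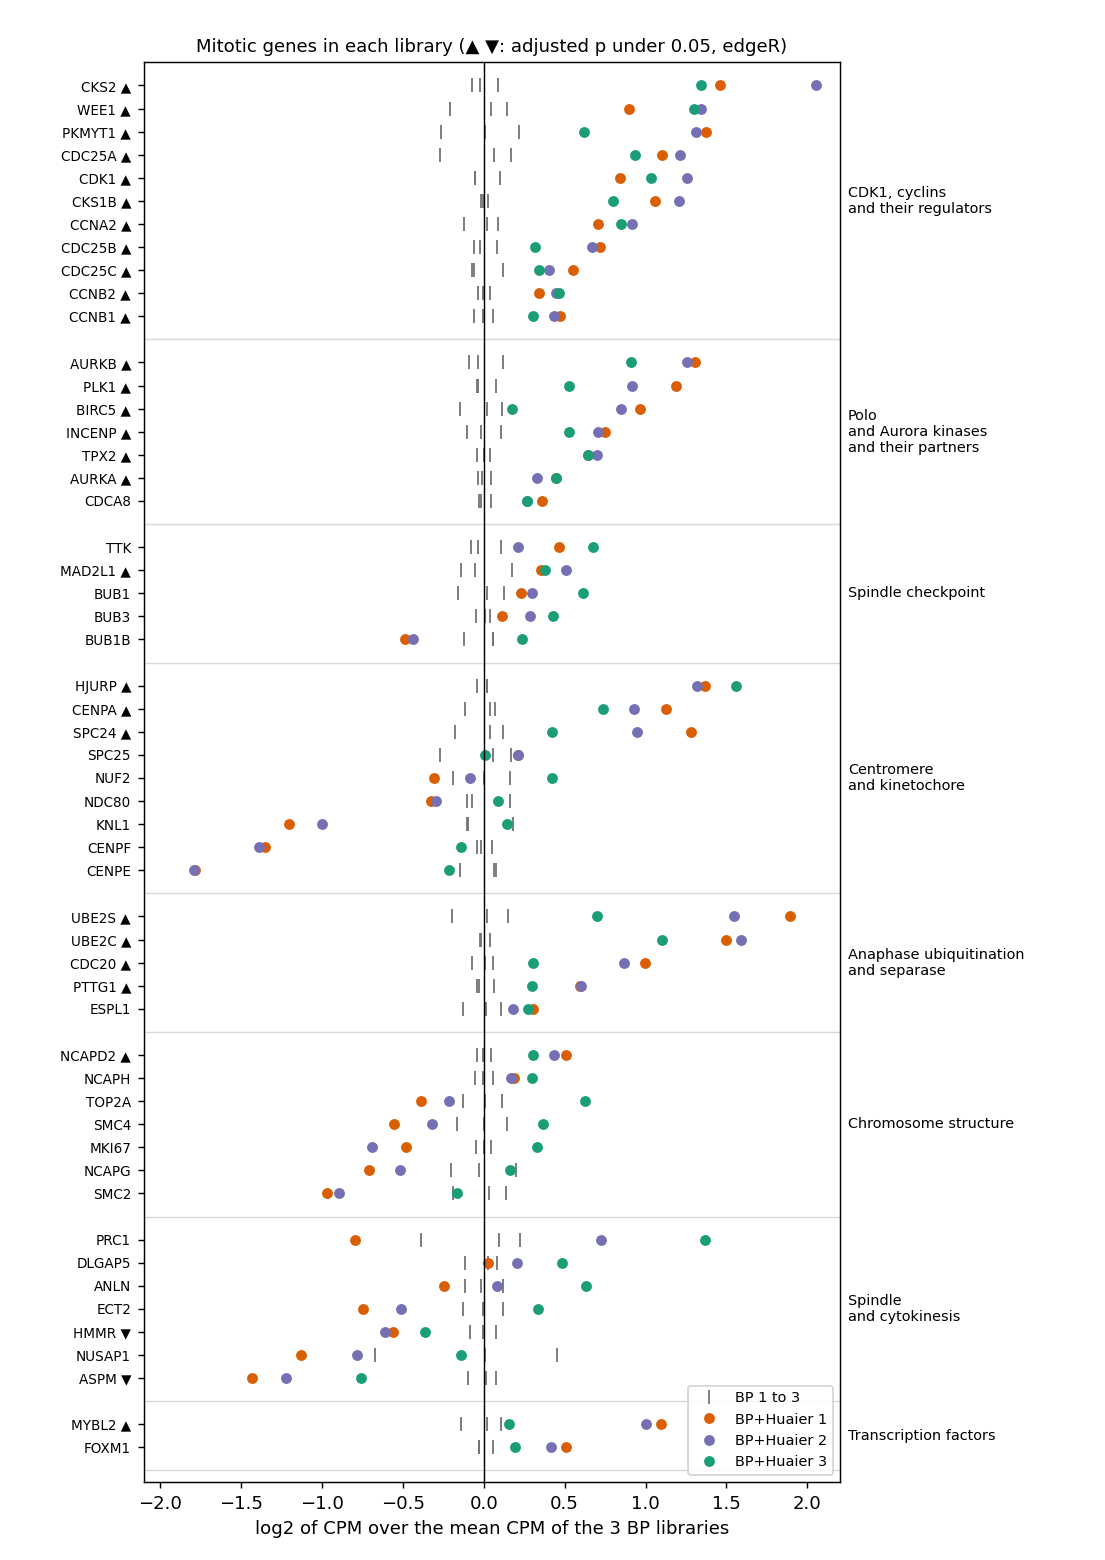
Level of each of the 53 mitotic genes in each library, as log2 of CPM over the mean CPM of the 3 BP libraries (horizontal axis), grouped by role and ordered by fold change within a role. Grey ticks are BP libraries, coloured points are BP+Huaier libraries and triangles mark an adjusted p under 0.05. The 11 genes of CDK1, cyclins and their regulators lie right of all BP ticks, while CENPE, CENPF and KNL1 lie far left in BP+Huaier 1 and 2, and PRC1 and NUSAP1 had few counts.

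With libraries scaled by size alone, the all-gene median on the log2 scale moved from -0.02 to -0.28 and that of the 53 from 0.42 to 0.15. Of the mitotic genes 18 were then higher and 2 lower, beside 7.0% and 19.7% of all genes. Leaving out BP 1, 2 or 3 left 13, 14 and 16 higher, and leaving out BP+Huaier 1, 2 or 3 left 19, 15 and 31. Over all genes tested the shares higher were then 5.27%, 5.46%, 6.61%, 11.4%, 6.08% and 28.8%. The edgeR fit has 1 spread per gene for both groups, and limma-voom with a weight for each library gave 32 higher and 11 lower members, beside 31.0% and 33.9% of all genes. Over 14 alternatives 13 of the 27 rises were called in every one (CCNA2, CDK1, CDC25A, WEE1, PKMYT1, CKS1B, CKS2, PLK1, AURKB, CENPA, HJURP, UBE2C and UBE2S), and 8 were lost in at least 7.

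The promoters of the mitotic genes were searched for a pair of elements known from cell cycle genes. The CHR element, bound by the MuvB core of the DREAM and MYBL2 complexes, reads TTTGAA or TTCGAA, and the CCAAT box is bound by NF-Y. RefSeq windows of GRCh38.p14, from 250 bases before to 50 bases after a gene's start, were found for 43 of the 53 genes, taking the window listed at the top where a gene has several, and no entry was found for UBE2C, WEE1, TPX2, PKMYT1, BIRC5, AURKA, TTK, FOXM1, BUB3 and KNL1. On either strand, 31 of the 43 windows (72.1%) held a CHR and 32 (74.4%) a CCAAT, beside 16.6% and 35.7% of 27305 windows of all genes, 1 for each symbol. At least 2 CCAAT stood in 23 of the 43 (53.5%), beside 11.3% of all. The CHR was in 11 of 21 windows of genes that rose (52.4%), in both genes that fell and in 18 of 20 (90.0%) that were not called. A match of letters is a description and shows no binding. The windows of the 4 called genes with the smallest p-values among those that hold a CHR are printed, 5′ to 3′ on the strand of the gene, with CHR and CCAAT letters of either strand in capitals. HJURP is from chr2:233854486-233854785 on the minus strand, CKS2 from chr9:89310945-89311244, CKS1B from chr1:154974431-154974730 and CDK1 from chr10:60778081-60778380, all 3 on the plus strand.
HJURP: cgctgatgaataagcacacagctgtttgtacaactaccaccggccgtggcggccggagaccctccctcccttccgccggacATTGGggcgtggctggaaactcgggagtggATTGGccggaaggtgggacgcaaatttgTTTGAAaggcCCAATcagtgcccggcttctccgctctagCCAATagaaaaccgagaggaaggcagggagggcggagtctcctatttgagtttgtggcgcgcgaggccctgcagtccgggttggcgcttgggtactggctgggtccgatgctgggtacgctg
CKS2: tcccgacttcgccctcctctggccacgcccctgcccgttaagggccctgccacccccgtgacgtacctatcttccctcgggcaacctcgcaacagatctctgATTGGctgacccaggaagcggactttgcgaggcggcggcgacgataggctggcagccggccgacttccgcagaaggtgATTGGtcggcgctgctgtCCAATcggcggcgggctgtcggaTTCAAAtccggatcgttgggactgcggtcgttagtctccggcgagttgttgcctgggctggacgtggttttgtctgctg
CKS1B: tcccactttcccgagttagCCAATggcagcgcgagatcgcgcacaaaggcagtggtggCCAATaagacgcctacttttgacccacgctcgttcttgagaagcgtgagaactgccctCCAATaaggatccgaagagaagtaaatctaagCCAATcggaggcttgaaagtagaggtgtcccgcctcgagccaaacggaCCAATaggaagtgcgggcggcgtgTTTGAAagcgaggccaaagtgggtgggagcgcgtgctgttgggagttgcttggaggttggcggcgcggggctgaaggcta
CDK1: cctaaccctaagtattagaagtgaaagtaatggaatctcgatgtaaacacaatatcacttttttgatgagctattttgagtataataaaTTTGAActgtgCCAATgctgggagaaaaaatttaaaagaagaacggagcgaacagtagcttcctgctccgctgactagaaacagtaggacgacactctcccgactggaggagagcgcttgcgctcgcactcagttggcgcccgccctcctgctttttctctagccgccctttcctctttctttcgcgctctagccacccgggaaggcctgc
HJURP holds its CHR 111 bases before the start among 4 CCAAT, and CKS1B holds its own 30 bases before the start behind 5 CCAAT. In CKS2 the CHR is on the minus strand, 29 bases before the start, and reads TTCAAA on the printed strand. In the CDK1 window the CHR begins 161 bases and the CCAAT 150 bases before the start. None of the matches in these 4 windows overlaps another.

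CDK1, its cyclins and their regulators rose without exception, 11 of 11, and no library of one group overlapped the other for any of them. Of all genes tested 14.4% were higher, and 21.9% did not overlap with BP+Huaier above. CDK1 (ENSG00000170312.16, GRCh38 chromosome 10, 60778331 to 60794852), the kinase that drives entry into mitosis, was at 58.2, 64.7 and 58.3 CPM in BP 1, 2 and 3 and at 108, 144 and 124 CPM in BP+Huaier 1, 2 and 3. Its level went from 60.4 ± 3.70 to 125 ± 17.9 CPM (SD, n = 3), which on the log2 scale is 1.05 ± 0.15 (SE; edgeR adjusted p = 0.0021). CKS2 (ENSG00000123975.5, chromosome 9, 89311195 to 89316703), a small subunit that docks CDK1 on phosphorylated substrates, was at 110, 124 and 114 CPM in BP and at 319, 482 and 295 CPM in BP+Huaier. Every BP+Huaier library stood well above BP, and BP+Huaier 2 was the highest. On the log2 scale CKS2 rose by 1.66 ± 0.20 (edgeR adjusted p = 0.0014), and per kb of exon CKS2 also had the highest mean level of the 53 in BP, 188 CPM per kb. Its paralog CKS1B was at 68.8, 69.4 and 70.9 CPM in BP and at 145, 161 and 121 CPM in BP+Huaier, a rise of 2.04-fold (edgeR adjusted p = 0.0021).

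The cyclins had smaller folds than the kinase. CCNB1 (ENSG00000134057.15, chromosome 5, 69167135 to 69178245), the main mitotic cyclin, was at 308, 322 and 297 CPM in BP and at 428, 417 and 381 CPM in BP+Huaier. The groups did not overlap, but the rise was small, 0.40 ± 0.13 on the log2 scale (SE; edgeR adjusted p = 0.043). CCNB2 rose 1.34-fold, from 86.4 ± 2.31 to 116 ± 5.36 CPM (SD, n = 3), while CCNA2, which acts from S phase on, rose 1.77-fold, from 70.6 ± 5.14 to 125 ± 9.20 CPM. Whether the folds of CDK1 and CCNB1 differ was not tested.

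Activators and inhibitors of CDK1 rose together. Among the CDC25 phosphatases, which remove the inhibitory phosphates, CDC25A rose 2.12-fold, from 14.1 ± 2.13 to 29.9 ± 2.91 CPM (SD, n = 3), CDC25B rose 1.49-fold, from 275 ± 14.1 to 410 ± 59.9 CPM, and CDC25C rose 1.35-fold, from 35.3 ± 2.71 to 47.8 ± 3.63 CPM. Of the kinases that add those phosphates, WEE1 rose 2.28-fold, from 37.5 ± 4.58 to 85.7 ± 13.8 CPM, and PKMYT1 rose 2.2-fold, from 31.6 ± 5.22 to 69.6 ± 18.3 CPM. PKMYT1 shared 24.7% of its exon bases with PAQR4 on the opposite strand, and whether the counting used strand is not stated. CDC25C likewise shared 8.8% with FAM53C, which had 15569 counts beside its own 4062. The calls of CCNB1 and CDC25C were lost when any library other than BP+Huaier 3 was left out (edgeR adjusted p between 0.083 and 0.18), and those of CCNB2 and CDC25B without BP 1, 2 or 3 or BP+Huaier 2 (0.071 to 0.12).

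Polo and Aurora kinases and their partners followed, with 6 of 7 higher (85.7%), beside 14.4% of all genes tested. AURKB (ENSG00000178999.13, chromosome 17, 8204733 to 8210600), the kinase of the chromosomal passenger complex that corrects faulty attachments, was at 83.6, 86.8 and 96.6 CPM in BP and at 220, 213 and 168 CPM in BP+Huaier. All 3 BP+Huaier libraries were clear of BP, BP+Huaier 3 least so. On the log2 scale AURKB rose by 1.17 ± 0.15 (SE; edgeR adjusted p = 0.0017). Of the other subunits of the complex, the scaffold INCENP rose 1.58-fold, from 65.3 ± 4.73 to 103 ± 8.30 CPM (SD, n = 3), BIRC5 (survivin) rose 1.63-fold, from 141 ± 12.6 to 230 ± 61.8 CPM, and CDCA8 (borealin) averaged 88.7 ± 2.38 and 109 ± 4.26 CPM without passing the test (edgeR adjusted p = 0.089). BIRC5 was at 276 and 254 CPM in BP+Huaier 1 and 2 and at 160 CPM in BP+Huaier 3, close to its highest BP value of 153 CPM.

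PLK1, a kinase of centrosome maturation and mitotic exit, was at 111, 111 and 120 CPM in BP and at 260, 215 and 164 CPM in BP+Huaier. It rose 1.87-fold (edgeR adjusted p = 0.0073), with 11.6% of its exon bases shared with an unnamed gene of 14 counts on the opposite strand. AURKA, the Aurora kinase of spindle poles, was at 115, 119 and 113 CPM in BP and at 158, 145 and 158 CPM in BP+Huaier. The BP+Huaier libraries were close together and all above BP, and the rise was 1.33-fold (edgeR adjusted p = 0.035). TPX2, the spindle protein that activates AURKA, was at 267, 274 and 259 CPM in BP and at 416, 433 and 417 CPM in BP+Huaier, 1.58-fold higher (edgeR adjusted p = 0.0062). In TPX2 and AURKA BP+Huaier 3 lay with BP+Huaier 1 and 2. The AURKA call was lost when any library other than BP+Huaier 3 was left out (0.062 to 0.15), the BIRC5 call likewise (0.074 to 0.13), the INCENP call without BP 1 or 2 (0.053 and 0.052) and the TPX2 call without BP 1 (0.051).

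**Figure D2:**
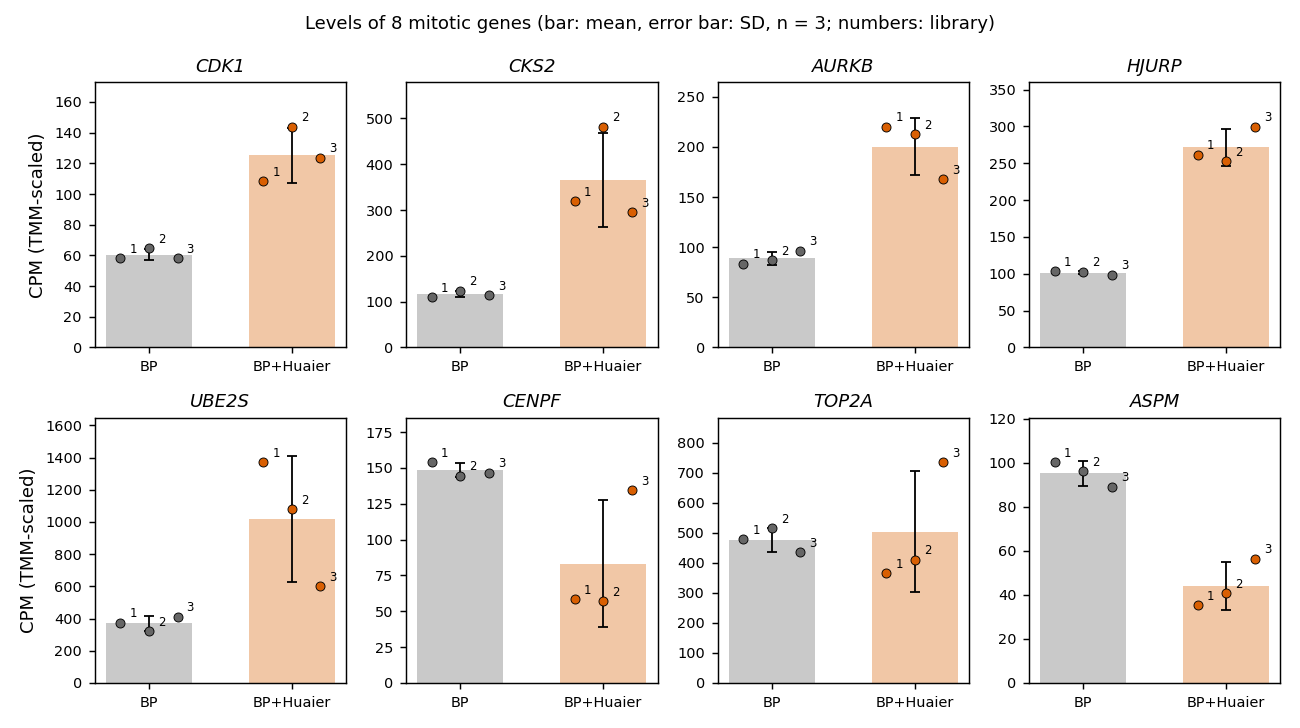
Level of 8 mitotic genes in CPM (vertical axes from 0), with bars for the mean of 3 libraries, error bars for the SD and numbered points for the libraries. CDK1, CKS2, AURKB, HJURP and UBE2S are above BP in all 3 BP+Huaier libraries and ASPM below, while BP+Huaier 3 lies near BP for CENPF and above it for TOP2A.

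Of the 5 spindle checkpoint genes 1 rose (20%), beside 14.4% of all genes tested, and 4 did not pass the test. MAD2L1, the checkpoint protein that holds CDC20 inactive, was at 62.7, 73.2 and 58.9 CPM in BP and at 82.9, 92.6 and 84.5 CPM in BP+Huaier, a rise of 1.33-fold (edgeR adjusted p = 0.049). The groups did not overlap, and the call was lost when any library other than BP+Huaier 3 was left out (edgeR adjusted p between 0.055 and 0.19). TTK, the kinase MPS1 that starts checkpoint signalling, was at 37.8, 43.2 and 39.0 CPM in BP and at 55.2, 46.3 and 63.9 CPM in BP+Huaier (edgeR adjusted p = 0.051, and 0.019 without BP+Huaier 3). BUB1B, which encodes BUBR1, was at 50.4, 50.2 and 44.5 CPM in BP and at 34.5, 35.7 and 56.9 CPM in BP+Huaier. For BUB1B the BP+Huaier libraries thus lay on both sides of BP, and the difference did not pass (edgeR adjusted p = 0.50), but without BP+Huaier 3 it was called lower (-0.45 on the log2 scale, edgeR adjusted p = 0.0035). The kinase BUB1 was at 131 ± 12.8 and 172 ± 25.4 CPM (SD, n = 3; edgeR adjusted p = 0.083, and 0.033 without BP+Huaier 3), and BUB3 at 158 ± 4.77 and 193 ± 21.2 CPM (edgeR adjusted p = 0.14).

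Centromere and kinetochore genes split. HJURP (ENSG00000123485.12, chromosome 2, 233833416 to 233854566), the chaperone that loads the centromeric histone CENPA, was at 103, 103 and 98.7 CPM in BP and at 262, 253 and 299.9 CPM in BP+Huaier. On the log2 scale it rose by 1.42 ± 0.13 (SE; edgeR adjusted p = 7.4e-04), the smallest p of the 53, and BP+Huaier 3 was the highest library. CENPA was at 32.1, 32.8 and 28.8 CPM in BP and at 68.0, 59.6 and 52.0 CPM in BP+Huaier, a rise of 1.92-fold (edgeR adjusted p = 0.0033). The loader and the histone were thus higher in every BP+Huaier library. SPC24, a subunit of the NDC80 complex that binds microtubules, rose 1.90-fold, from 24.0 ± 2.51 to 45.6 ± 13.2 CPM (SD, n = 3), but lost its call without BP 1, BP 2 or BP+Huaier 2 (edgeR adjusted p = 0.056, 0.076 and 0.055).

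The other subunits of that complex did not pass the test, NDC80 at 56.2 ± 5.83 and 50.2 ± 8.32 CPM, NUF2 at 53.8 ± 6.5 and 55.4 ± 14.8 CPM and SPC25 at 14.1 ± 2.15 and 15.7 ± 1.24 CPM (SD, n = 3; edgeR adjusted p between 0.46 and 0.89). CENPE, a kinetochore motor, was at 29.9, 30.1 and 25.9 CPM in BP and at 8.31, 8.27 and 24.7 CPM in BP+Huaier (edgeR adjusted p = 0.068). CENPF, a large protein of the outer kinetochore, was at 154, 144 and 147 CPM in BP and at 58.3, 56.8 and 134 CPM in BP+Huaier (edgeR adjusted p = 0.068). Both lay far below BP in BP+Huaier 1 and 2 and just below it in BP+Huaier 3. KNL1, the scaffold on which checkpoint proteins gather, was at 29.2, 35.4 and 29.2 CPM in BP and at 13.6, 15.7 and 34.6 CPM in BP+Huaier (edgeR adjusted p = 0.22). Without BP+Huaier 3, CENPE, CENPF, KNL1 and NDC80 were called lower, by log2 values of -1.78, -1.36, -1.09 and -0.30 (edgeR adjusted p = 3.5e-07, 1.4e-07, 2.1e-05 and 0.039), and CENPE and CENPF were also called with all 6 libraries by DESeq2 (adjusted p = 0.023 and 0.029) and by limma-voom (0.028 and 0.034).

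Of 5 genes of anaphase ubiquitination and sister separation 4 rose (80%), beside 14.4% of all genes tested. UBE2S (ENSG00000108106.14, chromosome 19, 55399745 to 55407788), which extends ubiquitin chains for the anaphase-promoting complex, was at 375, 322 and 411 CPM in BP and at 1373, 1081 and 599 CPM in BP+Huaier. All 3 BP+Huaier libraries exceeded BP but differed widely from one another, and the rise on the log2 scale was 1.46 ± 0.28 (SE; edgeR adjusted p = 0.0064). UBE2C, which starts those chains, was at 138, 139 and 144 CPM in BP and at 396, 421 and 301 CPM in BP+Huaier, a rise of 2.66-fold (edgeR adjusted p = 0.0011). CDC20, the activator of the complex in metaphase, was at 237, 224 and 245 CPM in BP and at 470, 429 and 291 CPM in BP+Huaier, 1.68-fold higher (edgeR adjusted p = 0.017). In each of these 3 genes BP+Huaier 3 was the lowest of its group. PTTG1, the securin that the complex destroys, rose 1.42-fold, from 175 ± 7.21 to 248 ± 28.9 CPM (SD, n = 3), while ESPL1, the separase that securin restrains, averaged 60.6 ± 4.98 and 72.2 ± 3.21 CPM without passing the test (edgeR adjusted p = 0.16). The CDC20 call was lost without BP 1, 2 or 3 or BP+Huaier 2 (edgeR adjusted p between 0.065 and 0.087) and the PTTG1 call when any library other than BP+Huaier 3 was left out (0.054 to 0.11).

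Genes of chromosome structure mostly did not pass, with 1 of 7 higher (14.3%), close to the 14.4% of all genes tested. NCAPD2, a regulatory subunit of condensin I, was at 438, 449 and 465 CPM in BP and at 641, 609 and 558 CPM in BP+Huaier, 1.34-fold higher (edgeR adjusted p = 0.042), a call that was lost when any library other than BP+Huaier 3 was left out (0.095 to 0.19). SMC2, a core ATPase of condensin, was at 40.8, 44.0 and 34.9 CPM in BP and at 20.4, 21.5 and 35.6 CPM in BP+Huaier (edgeR adjusted p = 0.063). SMC2 thus lay below BP in BP+Huaier 1 and 2 and within the BP range in BP+Huaier 3, whereas NCAPD2 and NCAPH were above BP in every BP+Huaier library, NCAPH without passing the test. The other ATPase, SMC4, was at 134 ± 14.2 and 124 ± 43.4 CPM, NCAPG at 36.5 ± 5.11 and 29.6 ± 9.95 CPM and NCAPH at 42.1 ± 1.64 and 49.0 ± 2.37 CPM (SD, n = 3; edgeR adjusted p between 0.21 and 0.73). NCAPG shared 33.7% of its exon bases with LCORL and SMC4 19.0% with TRIM59, both on the opposite strand.

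TOP2A (ENSG00000131747.15, chromosome 17, 40388525 to 40417896), the topoisomerase that untangles sister chromatids, was at 479, 515 and 436 CPM in BP and at 365, 411 and 736 CPM in BP+Huaier (edgeR adjusted p = 0.83). MKI67 (ENSG00000148773.14, chromosome 10, 128096659 to 128126423), the Ki-67 protein that coats mitotic chromosomes and is stained as a proliferation marker, was at 283, 266 and 275 CPM in BP and at 197, 170 and 344 CPM in BP+Huaier (edgeR adjusted p = 0.53). For these markers the BP libraries were close together, BP+Huaier 1 and 2 lay below all of them and BP+Huaier 3 above. The same order held for BUB1B, SMC4 and ECT2, 5 of the 53 in all, and in 5 more (KNL1, NCAPG, NDC80, NUSAP1 and SMC2) BP+Huaier 1 and 2 were below BP and BP+Huaier 3 within it. How often all genes tested have these orders was not counted, so the orders cannot be taken as particular to mitotic genes. Without BP+Huaier 3, TOP2A and MKI67 were called lower, by log2 values of -0.29 and -0.57 (edgeR adjusted p = 0.019 and 1.7e-04), as were SMC2 at -0.92, NCAPG at -0.60 and SMC4 at -0.42. Without it 31 of the 53 were higher and 13 lower (24.5%), while of all genes 28.8% were then higher and 31.0% lower, so the share of members called lower was below that of all genes.

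Of the 7 spindle and cytokinesis genes 2 fell (28.6%), beside 15.0% of all genes tested. The smallest p of a gene above 0 was that of DLGAP5. ASPM (ENSG00000066279.19, chromosome 1, 197084121 to 197146694), a spindle pole protein whose loss causes microcephaly, was at 100.3, 96.2 and 89.1 CPM in BP and at 35.3, 40.8 and 56.4 CPM in BP+Huaier. Every BP+Huaier library was below BP, with a log2 value of -1.11 ± 0.18 (SE; edgeR adjusted p = 0.0039), called in 14 of 14 alternatives. HMMR, a microtubule-associated protein of the spindle, was at 82.3, 87.1 and 77.8 CPM in BP and at 55.8, 53.9 and 64.1 CPM in BP+Huaier, 1.42-fold lower (edgeR adjusted p = 0.021). The HMMR call was lost without BP 1, 2 or 3 or BP+Huaier 2 (edgeR adjusted p between 0.072 and 0.10). The cytokinesis factors ANLN and ECT2 were at 148 ± 12.1 and 171 ± 53.7 CPM and at 128 ± 11 and 109 ± 45.8 CPM (SD, n = 3), and DLGAP5, a spindle protein, at 86.0 ± 5.93 and 102 ± 16.5 CPM (edgeR adjusted p between 0.23 and 0.52). Without BP+Huaier 3 ECT2 was called lower, by -0.61 on the log2 scale (edgeR adjusted p = 3.3e-04). The median log2 ratio of the 7 genes to the BP mean was -0.69 and -0.51 in BP+Huaier 1 and 2 and 0.34 in BP+Huaier 3. These 7 include PRC1 and NUSAP1, which had few counts. The median in BP+Huaier 1 is the value of PRC1, which had 7 counts there.

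PRC1 and NUSAP1 could not be read well. PRC1, which bundles the midzone of the spindle, had 110 counts over the 6 libraries and NUSAP1 had 64. In the deposited annotation 57.6% of the exon bases of PRC1 and 81.4% of those of NUSAP1 also belong to an unnamed gene on the same strand. The gene that overlaps PRC1 had 589 counts and the one that overlaps NUSAP1 had 0. How reads on shared bases were counted is not stated, so the levels of both genes are uncertain.

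The transcription factors that drive these genes were higher in every BP+Huaier library, and 1 of 2 passed, beside 14.4% of all genes tested called higher. MYBL2, the B-MYB subunit that turns MuvB into an activator, was at 241, 215 and 255 CPM in BP and at 507, 475 and 264 CPM in BP+Huaier. BP+Huaier 3 was only just above BP, and the rise was 1.75-fold (edgeR adjusted p = 0.031), a call lost when any library other than BP+Huaier 3 was left out (0.072 to 0.13). FOXM1, which acts on late cell cycle genes, was at 142, 142 and 151 CPM in BP and at 206, 194 and 166 CPM in BP+Huaier (edgeR adjusted p = 0.063, and 4.9e-04 without BP+Huaier 3). FOXM1 shared 15.9% of its exon bases with ITFG2 on the opposite strand.

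The direction of the members went with the exon length of the gene and the base composition of its longest transcript. Exon length is that listed for the gene in the deposited counts, not the length of a transcript. Of 16 members with less than 3000 bases of exon 14 were higher by edgeR, of 23 between 3000 and 6000 bases 11 were higher and 1 lower, and of 14 with at least 6000 bases 2 were higher (WEE1 and NCAPD2) and 1 lower, with median log2 fold changes of 0.82, 0.43 and -0.02. Over all genes tested in the same classes of length, 14.7%, 17.4% and 11.3% were higher and the medians were 0.08, 0.05 and -0.14, so the 14.3% of long members that were higher is close to the share of all long genes. Across the 53 genes, which share their libraries and are not independent replicates, the log2 fold change correlated with log2 exon length at r = -0.60 (Spearman rho -0.53) and with GC content of the longest transcript at r = 0.54 (rho 0.57). Across all genes tested the corresponding values were -0.06 (rho -0.13) and 0.26 (rho 0.33). Median GC content was 49.3% in the members that rose, 36.9% in those that fell and 40.4% in the rest. The libraries also differ in GC trend, within BP as well (across 14896 genes, the log2 ratio to the mean of the other BP libraries correlated with GC content at r = -0.44 for BP 2 and 0.42 for BP 3, and at 0.03 for BP 1). For BP+Huaier 1, 2 and 3 the log2 ratio to the mean of the BP libraries correlated with GC content at r = 0.39, 0.27 and 0.03. The part of these trends in the calls of members was not tested. Smooth trends on GC content and on the length of the longest transcript were then taken out per library. After that 32 members were higher and 5 lower, beside 19.5% and 19.4% of all genes. Over the members rho with exon length was -0.50, and rho with GC content fell from 0.57 to 0.35. A trend on exon length itself was not taken out, so whether the link with exon length would remain was not tested. The fall of ASPM was then -0.69 on the log2 scale and the rise of CKS2 1.98. All 16 members under 3000 bases had log2 fold changes above 0, from 0.15 for SPC25 to 1.66 for CKS2.

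**Figure D3:**
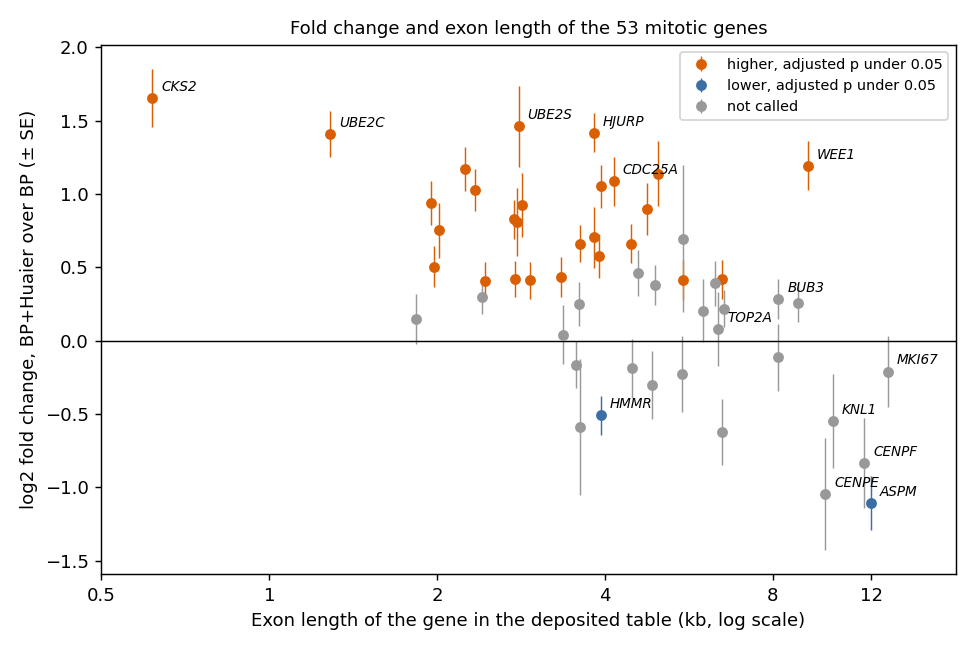
Log2 fold change of BP+Huaier over BP (vertical axis, error bars SE) against exon length in kb (horizontal axis, log scale) for the 53 mitotic genes, coloured by call. The short CKS2 and UBE2C lie at the top left, and CENPE, CENPF and ASPM at the lower right, with WEE1 the long gene that rose most.

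Other genes of mitosis, 99 in lists of the anaphase-promoting complex, cohesin, the inner and outer kinetochore, condensin II, exit phosphatases, cytokinesis and the MuvB complex, had 8 higher and 5 lower, or 8.08% and 5.05%, with a median log2 fold change of -0.01. Both shares are below those of all genes tested, 14.4% higher and 15.0% lower. Leaving out BP 1, 2 or 3 gave 2, 2 and 4 higher and 1, 1 and 2 lower, and leaving out BP+Huaier 1, 2 or 3 gave 9, 2 and 22 higher and 4, 0 and 28 lower by edgeR. Of all genes 5.27%, 5.46%, 6.61%, 11.4%, 6.08% and 28.8% were higher in these 6 fits. The shares of all genes lower were 5.92%, 6.14%, 6.84%, 11.8%, 6.48% and 31.0%. With GC and length trends removed 26 were higher and 10 lower, beside 19.5% and 19.4% of all genes. The regulators at the head of the higher genes were FBXO5 (EMI1), which blocks the anaphase-promoting complex before mitosis and rose 2.93-fold, from 21.7 ± 0.62 to 63.5 ± 10.4 CPM (SD, n = 3), CDCA5 (sororin), which protects cohesin and rose 2.09-fold, FZR1 (CDH1), which activates the complex after mitosis and rose 1.68-fold, and the checkpoint protein MAD1L1, which rose 1.72-fold. The lower genes included the cohesin subunit STAG1, 2.26-fold lower, from 22.2 ± 0.64 to 9.73 ± 4.23 CPM, the cohesin acetyltransferase ESCO2, 1.94-fold lower, the anaphase-promoting subunit CDC27, 1.90-fold lower, and the kinetochore subunit MIS12, 1.52-fold lower. Of 16 genes of the anaphase-promoting complex and its regulators 2 rose and 1 fell, of 15 inner kinetochore genes 1 rose, and of 11 MuvB, DREAM and E2F partners the smallest edgeR adjusted p was 0.12, for RBL1.

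DNA replication and G1/S genes, which peak earlier in the cycle, had 12 of 45 higher (26.7%) and 2 lower (4.44%) and a median log2 fold change of 0.37. Of all genes tested 14.4% were higher and 15.0% lower. Leaving out BP 1, 2 or 3 gave 3, 4 and 4 higher, leaving out BP+Huaier 1, 2 or 3 gave 9, 4 and 27, and scaling by library size gave 4. In the same order, 5.27%, 5.46%, 6.61%, 11.4%, 6.08%, 28.8% and 7.0% of all genes were then higher. At the head of the list stood RRM2, the ribonucleotide reductase subunit of S phase, which rose 3.22-fold, from 173 ± 8.75 to 558 ± 69.0 CPM (SD, n = 3), while the replication licensing factor CDT1 rose 2.96-fold, E2F1 rose 2.06-fold and SLBP, which binds histone transcripts, rose 1.55-fold. POLA1, the catalytic subunit of polymerase alpha, was 1.55-fold lower and GINS4, of the replicative helicase, 1.35-fold lower. Summed over the 53 mitotic genes, levels were between 6211 and 6326 CPM in BP and at 9591, 9466 and 8815 CPM in BP+Huaier. On this TMM scale the sum over all genes tested was higher as well. It was between 904470 and 922702 CPM in BP and at 1176540, 1166670 and 962716 CPM in BP+Huaier 1, 2 and 3. The lists share their libraries, and the differences between their counts were not tested.

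**Figure D4:**
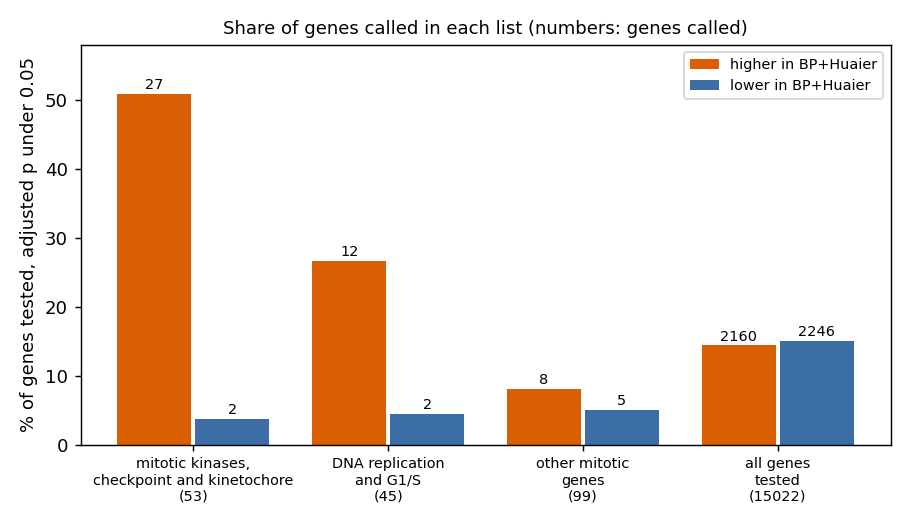
Share of genes with an adjusted p under 0.05 in each list, in % of the genes tested (vertical axis), with genes higher in BP+Huaier in orange, lower in blue, and the number called above each bar. The 53 mitotic kinases, checkpoint and kinetochore genes had 27 higher and 2 lower, beside 2160 and 2246 of all 15022 genes tested.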

How the data were processed

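RNA of 6 libraries was sequenced, 3 per group. Per the submitters' processing notes, the authors used fastp 0.20.0, HISAT2 2.1.0 and featureCounts 1.6.1 with the build GRCh38. The deposited values are counts per gene, whole numbers that were not normalized, as read from the values. How the counting treated strand, overlaps and multi-mapping reads is not stated in them, so genes that share exon bases or have close copies are uncertain. CKS1B had 7 named pseudogenes, with 1.29% of its counts.

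From 60648 genes, 44 second copies on the Y chromosome were left out, and 3 broken lines of ANK2 were not used. Symbols came from a table of gene names that matched 99.77% of IDs, and GC content from GENCODE release 29. In R 4.3.3, edgeR 4.0.16 filtered genes (filterByExpr, minimum count 10, 15022 left), scaled libraries by TMM, and tested BP+Huaier against BP in a robust quasi-likelihood fit on group alone. A gene was called where its p, adjusted by Benjamini-Hochberg, was under 0.05. CPM are given as mean ± SD, and ratios per library add 0.1 CPM.

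The 53 genes and all lists were chosen with earlier results of these data known. Genes were named by rule: the 2 with the smallest p in each of 8 role sets and 12 well-known members, shown in every library, and up to 4 called genes per direction of the other lists. CENPE, CENPF and KNL1, and other members described, were picked with their values known. Other settings tried were DESeq2 size factors, library size scaling, DESeq2 1.42.0, limma-voom (limma 3.58.1) with and without library weights, no filter, the replicate number as a block, removal of trends on GC content and length of the longest transcript (splines of 5 and 3 degrees of freedom), and each library left out. The steps were tested on simulated counts. Figures used matplotlib 3.10.9.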

Additional observations from a re-analysis of the deposited data

How the results depend on the processing

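A pairing by replicate number was not seen: deviations of same-numbered libraries correlated at 0.01, -0.06 and -0.28, and no library correlated best with its own number. The deviations were taken from the mean of each group of 3 and so depend on one another, and they cannot exclude a paired design. With the replicate number as a block, 17 members were higher, as were 1357 of all genes (9.03%), 4 of the other mitotic genes and 7 of the G1/S genes. Of the G1/S genes 0 were lower, beside 11.6% of all genes.

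Of the members called, 0 changed direction in any of the 14 alternatives. Leaving out 1 library at a time gave 13 to 31 members higher and 1 to 13 lower, 810 to 4452 of all genes (5.27% to 28.8%) higher and 909 to 4793 (5.92% to 31.0%) lower, 2 to 22 other mitotic genes higher and 0 to 28 lower, and 3 to 27 G1/S genes higher and 0 to 4 lower, with the highest counts without BP+Huaier 3. Library size scaling gave a median of 0.15 for the members, 1051 of all genes higher (7.0%, with 19.7% lower), 4 other mitotic genes higher and 10 lower, and 4 G1/S genes higher. Of all calls 26.2% were then higher, beside 49.0%. DESeq2 gave 5 members lower, 16 other mitotic genes higher and 8 lower, and 19 G1/S genes higher, beside 18.4% higher and 16.2% lower of all genes. With limma-voom 5 members and 8 other mitotic genes were lower, beside 17% of all genes. With library weights 11 members were lower, 4656 of all genes were higher (31.0%) and 5085 lower (33.9%), 27 other mitotic genes higher and 30 lower, and 28 G1/S genes higher and 7 lower. Without the filter 6 members, 10 other mitotic genes and 1 G1/S gene were lower, beside 9.63% of all genes. DESeq2 size factors gave 1 G1/S gene lower, beside 14.3% of all genes. With GC and length trends removed the median of the members was 0.46, 5 members were lower, 26 other mitotic genes were higher and 10 lower, and 20 G1/S genes were higher. Of all genes 19.5% were then higher and 19.4% lower. The cause of these differences was not tested.

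Members that were not called and changed sign had these log2 fold changes. Under library size scaling they were -0.19 for NUF2, -0.13 for SPC25, -0.0053 for ESPL1, -0.039 for NCAPH, -0.14 for TOP2A and -0.024 for ANLN. With library weights they were -0.095 for NUF2 and -0.20 for TOP2A. With trends removed they were 0.042 for NDC80, 0.11 for SMC4 and 0.024 for MKI67. With 1 library left out at a time, NUF2 ran from -0.18 to 0.20, SMC4 from -0.42 to 0.075, TOP2A from -0.29 to 0.28 and ANLN from -0.060 to 0.39, each lowest without BP+Huaier 3 and highest without BP+Huaier 1.

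The precision is limited by 3 libraries per group, of which BP+Huaier 3 lay between the groups. PRC1 and NUSAP1 had too few counts to compare.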
